A study of Saccharomyces cerevisiae with 6 samples.

Results

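The 38 genes described here encode the mitochondrial machinery of respiration in *Saccharomyces cerevisiae*, namely subunits of complexes II, III and IV, cytochrome *c*, the ATP synthase with its inhibitor, the external NADH dehydrogenase *NDE2* and 6 enzymes of the tricarboxylic acid (TCA) cycle. They were chosen by function and ORF name among the 6212 ORFs listed. Their own response was not a criterion, but earlier results of these data were known when they were chosen. Genes on chromosomes XII and XIII were left out, where the values of *ptc1 ptc6* cells do not correspond to those of wild type cells (r across ORFs of -0.00 and 0.55), although those of *ptc6* cells do (0.970 and 0.974). By group there were 9 genes of complex III, 6 of complex IV, 2 of cytochrome *c*, 11 of the ATP synthase, 3 of complex II, 1 external NADH dehydrogenase and 6 TCA enzymes. *NDE2* belongs to none of the complexes that the selection was meant to cover and was kept as listed.

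The response to rapamycin was measured in *ptc6* cells, in *ptc1 ptc6* cells and in wild type cells, all in the BY4741 background, which is a laboratory strain auxotrophic for histidine, leucine, methionine and uracil. The *ptc6* mutant lacks Ptc6, a type 2C protein phosphatase found in mitochondria, and the double mutant also lacks Ptc1, another phosphatase of this type. The labels do not give the disrupted alleles. A culture of each strain, grown in rich glucose medium at 28 ºC, was divided into aliquots of 30 ml, of which 1 received 200 ng/ml rapamycin for 1 h and the other was mock-treated. Their RNA was hybridized together on 2 arrays that differ in which sample carried which dye, so that the 3 strains are covered by 6 arrays. With 1 culture a strain there is no biological replicate, the arrays of a strain show technical spread only, and differences are described without a test. As a check of the labels, *PTC6* lacked a value on the 4 mutant arrays and was measured in wild type cells (1.11 and 0.62), while *PTC1* was measured on wild type array 2 alone (-0.28). The check is weak, because *PTC1* also lacked values on wild type array 1 and in *ptc6* cells, which carry the gene. A missing value therefore cannot establish a deletion, and the *PTC1* values do not check the double mutant.

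Rapamycin inhibits the TORC1 kinase complex, which promotes growth when nutrients are plentiful. In yeast growing on glucose, respiration is limited by glucose repression, and electrons enter the chain from succinate through complex II and from NADH through single-polypeptide dehydrogenases, since this yeast has no proton-pumping complex I. Complex III passes electrons to cytochrome *c*, complex IV passes them to oxygen, and the ATP synthase uses the proton gradient that complexes III and IV build. Many of the nuclear genes for these proteins are activated by the Hap2/3/4/5 complex, of which Hap4 is the regulated activating subunit.

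Most of the measured genes lay above 0 in all 3 strains, but the size of the response differed by complex. The values used are log2 ratios of rapamycin-treated to mock-treated cells, averaged over both arrays of a strain where both gave a value, and a gene was called induced above 1 and repressed below -1, which is 2-fold. The median of the members was 0.46 in *ptc6* cells (30 genes), 0.53 in *ptc1 ptc6* cells (29 genes) and 0.50 in wild type cells (27 genes), beside medians of 0.08, 0.04 and 0.04 over all ORFs outside chromosomes XII and XIII in the same order of strains. In *ptc6* cells it was 0.57 without array 1 and 0.25 without array 2. The mean was above 0 for 25 of 30 members in *ptc6* cells (83.3%, against 54.4% of all ORFs), for 25 of 29 in *ptc1 ptc6* cells (86.2%, against 52.6%) and for 23 of 27 in wild type cells (85.2%, against 51.3%).

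Induction past 2-fold was measured for 4 of 30 members in *ptc6* cells, where 10.6% of all ORFs were induced. It was measured for 7 of 29 members in *ptc1 ptc6* cells, where the share of all ORFs was 12.2%, and for 9 of 27 members in wild type cells, where it was 14.7%. The *ptc6* count is thus near the background, and the shares in *ptc1 ptc6* and wild type cells (24.1% and 33.3%) are about 2 times that over all ORFs. No member was repressed past 2-fold in any strain (0 of 30, 0 of 29 and 0 of 27), whereas 14.2% of all ORFs were repressed in *ptc6* cells, 15.2% in *ptc1 ptc6* cells and 18.8% in wild type cells. Among the 25 members with a value on all 6 arrays the induced genes numbered 4, 7 and 9 in *ptc6*, *ptc1 ptc6* and wild type cells, in the same order as over all measured members. With a limit of 1.5-fold this order did not hold over all measured members. Then 14 of 30, 14 of 29 and 12 of 27 were induced, beside 22%, 24.5% and 25.5% of all ORFs. These sets do not hold the same genes. The induced genes of the double mutant included *RIP1*, *KGD2* and *LSC2* at 1.02, 1.01 and 1.03, close to the limit, and only 4 were left when each array was centred on its median. In *ptc6* cells *SDH4* (1.05) lost its call when centred, which left 3 induced genes, and the count was 7 without array 1 and 5 without array 2.

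**Figure D1:**
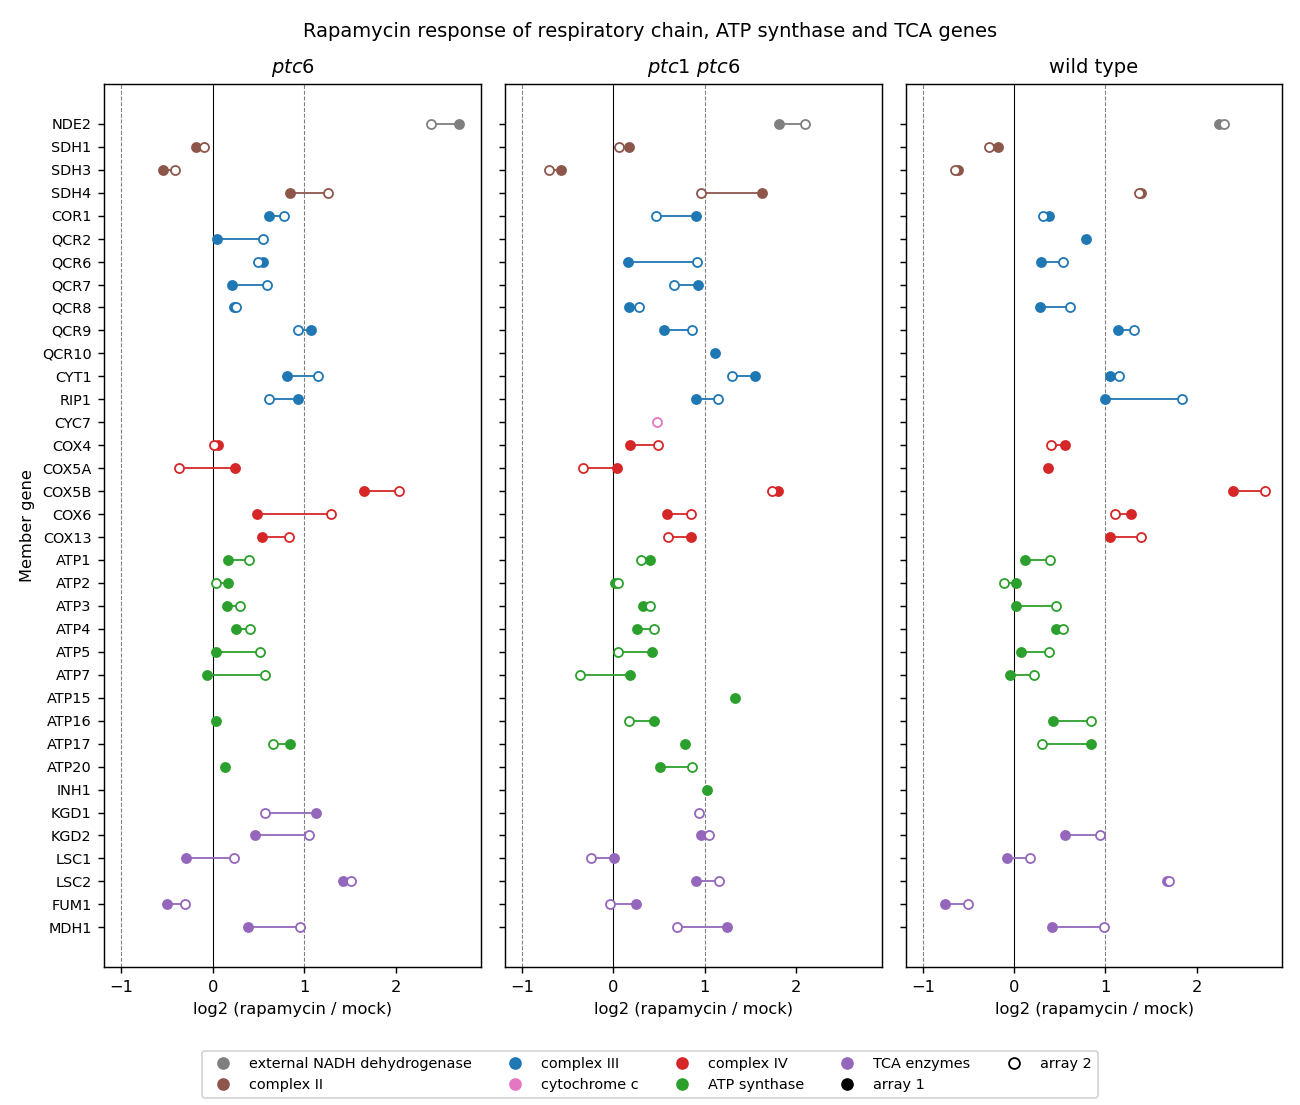
Log2 ratio of rapamycin-treated to mock-treated cells (x axis) for the 36 members with any value (y axis, coloured by complex), in *ptc6*, *ptc1 ptc6* and wild type cells. Filled and open circles are arrays 1 and 2 of the strain, joined where both gave a value, and dashed lines mark 2-fold. *NDE2* and *COX5B* lie farthest to the right in every strain, while the ATP synthase genes with 2 values lie between the dashed lines.

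*NDE2* (YDL085W), which oxidizes cytosolic NADH at the outer face of the inner membrane, had the highest mean of all members in both mutants and the second highest in wild type cells. Its log2 ratios were 2.70 and 2.39 on arrays 1 and 2 of *ptc6* cells, 1.82 and 2.10 in *ptc1 ptc6* cells, and 2.24 and 2.30 in wild type cells, which are inductions of 5.84-fold, 3.88-fold and 4.82-fold. The *ptc6* values stood above and the *ptc1 ptc6* values below both wild type values, but neither mean differed from wild type by 1.5-fold (0.28 and -0.31 log2 units). Its paralog *NDE1* and the internal enzyme *NDI1* are on chromosome XIII and were not analysed here.

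The 3 measured subunits of complex II, succinate dehydrogenase, did not move together. *SDH4* (YDR178W), a membrane anchor subunit, was induced in every strain, with 0.84 and 1.26 in *ptc6* cells, 1.62 and 0.96 in *ptc1 ptc6* cells, and 1.39 and 1.37 in wild type cells. *SDH3* (YKL141W), the other membrane anchor subunit, had negative values on all 6 arrays, with means of -0.48, -0.64 and -0.63 in *ptc6*, *ptc1 ptc6* and wild type cells. *SDH1* (YKL148C), the flavoprotein subunit, stayed close to 0, with -0.18 and -0.10 in *ptc6* cells, 0.17 and 0.06 in *ptc1 ptc6* cells, and -0.18 and -0.27 in wild type cells. Within each strain the *SDH4* values therefore lay above those of *SDH3* and *SDH1* on both arrays, by more than any difference between the arrays of these genes. *SDH9* (YJL045W), a paralog of *SDH1* that is not a member, was repressed past 2-fold, with means of -1.20, -1.81 and -1.53 in *ptc6*, *ptc1 ptc6* and wild type cells. The probes are whole amplified ORFs, so hybridization between such paralogs cannot be told apart from each gene's own signal.

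In complex III, the cytochrome *bc1* complex, every member with 2 values had a mean above 0. The median of the 6 genes with a value on every array was 0.73 in *ptc6* cells, 0.70 in *ptc1 ptc6* cells and 0.77 in wild type cells. The genes induced in wild type cells were *RIP1* (YEL024W), which encodes the Rieske iron-sulfur protein, *QCR9* (YGR183C), a small subunit, and *CYT1* (YOR065W), which encodes cytochrome *c1*. *CYT1* had 0.81 and 1.15 in *ptc6* cells, 1.54 and 1.30 in *ptc1 ptc6* cells, and 1.05 and 1.15 in wild type cells, so that it was highest in the double mutant, whose values overlapped with neither of the other strains. *QCR9* had 1.07 and 0.93 in *ptc6* cells, a mean of exactly 2-fold that did not pass the limit, 0.55 and 0.86 in *ptc1 ptc6* cells, and 1.14 and 1.31 in wild type cells. For *RIP1* the values were 0.93 and 0.61 in *ptc6* cells, 0.90 and 1.14 in *ptc1 ptc6* cells, and 1.00 and 1.84 in wild type cells, where the arrays differed more than for any other member.

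*COR1* (YBL045C), a core protein of complex III, had higher values in the mutants, with 0.61 and 0.78 in *ptc6* cells, 0.91 and 0.46 in *ptc1 ptc6* cells, and 0.38 and 0.32 in wild type cells. The small subunits *QCR6* (YFR033C) and *QCR8* (YJL166W) stayed between 0.15 and 0.91 on all 6 arrays. *QCR2* (YPR191W), the other core protein, had 0.05 and 0.55 in *ptc6* cells, no value in the double mutant and 0.79 on wild type array 1. *QCR7* (YDR529C) had no wild type value and gave 0.21 and 0.59 in *ptc6* cells, against 0.92 and 0.67 in *ptc1 ptc6* cells. *QCR10* (YHR001W-A) had a single value, 1.11 in *ptc1 ptc6* cells.

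Complex IV, cytochrome *c* oxidase, had the highest median of the multi-subunit complexes in wild type cells, and all its comparable subunits had lower means in both mutants. The median of the 4 subunits with a value on every array was 0.79 in *ptc6* cells, 0.72 in *ptc1 ptc6* cells and 1.21 in wild type cells. *COX5B* (YIL111W), the isoform of subunit V that is used when oxygen is low, was the member with the highest wild type value. On arrays 1 and 2 it gave 1.65 and 2.04 in *ptc6* cells, 1.80 and 1.73 in *ptc1 ptc6* cells, and 2.40 and 2.75 in wild type cells, or inductions of 3.59-fold, 3.40-fold and 5.96-fold. *COX5A* (YNL052W), the aerobic isoform of the same subunit, had 0.24 and -0.37 in *ptc6* cells, 0.04 and -0.33 in *ptc1 ptc6* cells, and 0.37 on the only wild type array with a value. The isoform genes thus differed in every strain on every array that measured both, with the same limit on paralogs as above.

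The other complex IV subunits responded less than *COX5B*. *COX6* (YHR051W) had 0.48 and 1.29 in *ptc6* cells, 0.58 and 0.85 in *ptc1 ptc6* cells, and 1.28 and 1.10 in wild type cells. *COX13* (YGL191W) had 0.54 and 0.83 in *ptc6* cells, 0.84 and 0.59 in *ptc1 ptc6* cells, and 1.05 and 1.39 in wild type cells, which lay above all mutant values. Only in wild type cells did the means of these genes pass 2-fold. *COX4* (YGL187C) had 0.06 and 0.01 in *ptc6* cells, 0.18 and 0.49 in *ptc1 ptc6* cells, and 0.56 and 0.40 in wild type cells. *COX9* (YDL067C) and *CYC1* (YJR048W), the gene for the main isoform of cytochrome *c*, had no value on any array, and *CYC7* (YEL039C), the gene for its minor isoform, had a single value of 0.48 in *ptc1 ptc6* cells, so the response of cytochrome *c* cannot be described from these arrays.

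The ATP synthase genes stayed within 2-fold by mean. The median of the 6 genes with a value on every array was 0.27 in *ptc6* cells, 0.29 in *ptc1 ptc6* cells and 0.24 in wild type cells, and 0 of the genes with 2 values passed 2-fold in any strain. The subunits of the catalytic head *ATP1* (YBL099W), *ATP2* (YJR121W) and *ATP3* (YBR039W) and of the stator stalk *ATP4* (YPL078C), *ATP5* (YDR298C) and *ATP7* (YKL016C) had a value on every array. Their means ran from 0.11 to 0.33 in *ptc6* cells, from -0.10 to 0.36 in *ptc1 ptc6* cells, and from -0.05 to 0.50 in wild type cells. *ATP2*, the catalytic beta subunit, stayed closest to 0, with 0.17 and 0.04 in *ptc6* cells, 0.02 and 0.05 in *ptc1 ptc6* cells, and 0.02 and -0.11 in wild type cells.

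The remaining ATP synthase genes lacked values. *ATP16* (YDL004W), the delta subunit of the head, had 0.03 on *ptc6* array 1, 0.44 and 0.17 in *ptc1 ptc6* cells, and 0.43 and 0.84 in wild type cells. *ATP17* (YDR377W), a membrane subunit, had 0.85 and 0.66 in *ptc6* cells, 0.79 on *ptc1 ptc6* array 1, and 0.84 and 0.31 in wild type cells. *ATP20* (YPR020W), which is linked to dimer formation, had 0.13 on *ptc6* array 1 and 0.51 and 0.86 in *ptc1 ptc6* cells. *ATP15* (YPL271W), the epsilon subunit of the head, and *INH1* (YDL181W), the inhibitor of ATP hydrolysis, were measured on *ptc1 ptc6* array 1 alone, at 1.33 and 1.02.

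Among the TCA enzymes the responses were spread over both directions. *LSC2* (YGR244C), the beta subunit of succinyl-CoA ligase, was induced in each strain, with 1.42 and 1.51 in *ptc6* cells, 0.91 and 1.16 in *ptc1 ptc6* cells, and 1.67 and 1.70 in wild type cells. *LSC1* (YOR142W), the alpha subunit of the same enzyme, had means of -0.03, -0.12 and 0.05 in *ptc6*, *ptc1 ptc6* and wild type cells, and both arrays of every strain set it below *LSC2*. *KGD2* (YDR148C), a subunit of the 2-oxoglutarate dehydrogenase complex, had 0.46 and 1.05 in *ptc6* cells, 0.96 and 1.05 in *ptc1 ptc6* cells, and 0.56 and 0.94 in wild type cells. *KGD1* (YIL125W), which encodes another subunit of that complex, had 1.13 and 0.57 in *ptc6* cells and 0.94 on *ptc1 ptc6* array 2. *MDH1* (YKL085W), mitochondrial malate dehydrogenase, had means of 0.67, 0.97 and 0.70 in the same order of strains.

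*FUM1* (YPL262W), which encodes fumarase, was the TCA enzyme with the lowest wild type value. It had -0.50 and -0.31 in *ptc6* cells, 0.24 and -0.04 in *ptc1 ptc6* cells, and -0.76 and -0.51 in wild type cells, so that the double mutant values lay above those of the other strains.

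**Figure D2:**
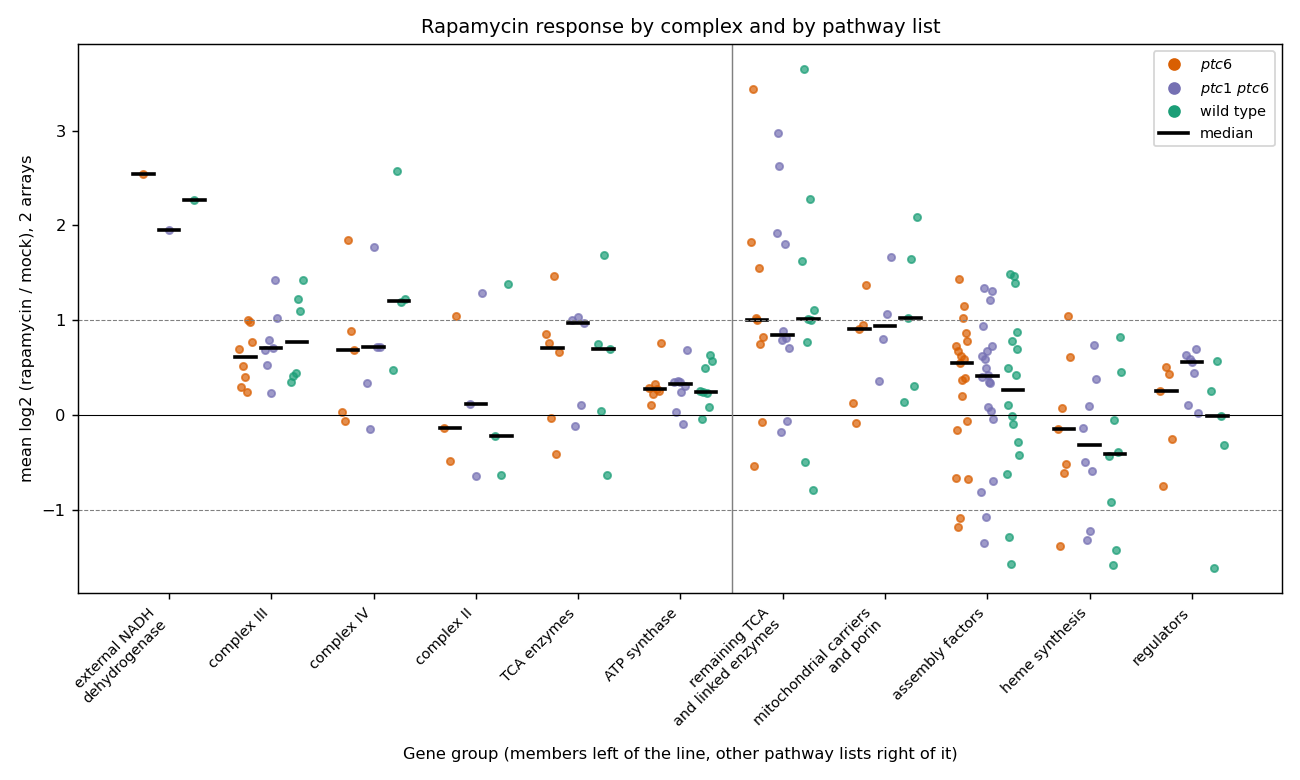
Mean log2 ratio of rapamycin-treated to mock-treated cells (y axis) by complex and, right of the grey line, by pathway list. Each point is a gene with a value on both arrays of the strain, and bars are medians. The ATP synthase genes lie within 2-fold (dashed lines) in each strain, whereas complex IV has its median past 2-fold only in wild type cells (1.21).

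To ask how the lack of the phosphatases bears on these responses, the mean of each gene in a mutant was set against that in wild type cells. Over the members as a whole the difference was small. The median of *ptc6* minus wild type was -0.02 log2 units (26 genes, range -0.73 to 0.35), beside 0.04 over all ORFs outside chromosomes XII and XIII, and the 4 pairs of a mutant and a wild type array gave -0.30 to 0.09. For *ptc1 ptc6* minus wild type it was -0.12 (26 genes, range -0.81 to 0.74), beside -0.03 over all ORFs, with -0.22 to 0.02 over the pairs of arrays. Across the members with 4 values, the Pearson correlation of the mean log2 ratios with wild type was 0.938 for *ptc6* and 0.903 for *ptc1 ptc6* cells (26 genes each), beside 0.973 and 0.962 over all ORFs outside chromosomes XII and XIII. These are correlations across genes, which share the arrays and are not replicates.

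A gene was called separated when both mutant values lay on the same side of both wild type values and the means differed by at least 1.5-fold (0.58 log2 units). In *ptc6* cells, 2 of 26 members were separated with a lower value, *COX5B* (-0.73) and *RIP1* (-0.65), and 0 with a higher one. Over all ORFs, 2.8% were separated lower and 9.51% higher in *ptc6* than in wild type cells. Both calls rested on wild type array 2, and without it the differences were -0.555 for *COX5B* and -0.23 for *RIP1* and no member was separated. Without *ptc6* array 1 the difference of *COX5B* was -0.54, also under the limit. Without *ptc6* array 2, *RIP1* lost its call (-0.49) and 4 members were separated, all lower, namely *COX5B*, *COX6*, *COX13* and *ATP16*.

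In *ptc1 ptc6* cells, 2 of 26 members were separated lower, *COX5B* (-0.81) and *LSC2* (-0.65), and 1 higher, *FUM1* (0.74). The corresponding shares of all ORFs were 6.79% lower and 7.53% higher, and 4.55% and 4.48% without chromosomes XII and XIII. *COX5B* and *FUM1* kept the call whichever array was left out, with differences of -0.98 to -0.63 and of 0.60 to 0.88. *LSC2* lost it without *ptc1 ptc6* array 1 (-0.53). Without wild type array 1, 6 members were separated, and without *ptc1 ptc6* array 2, 5 were.

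**Figure D3:**
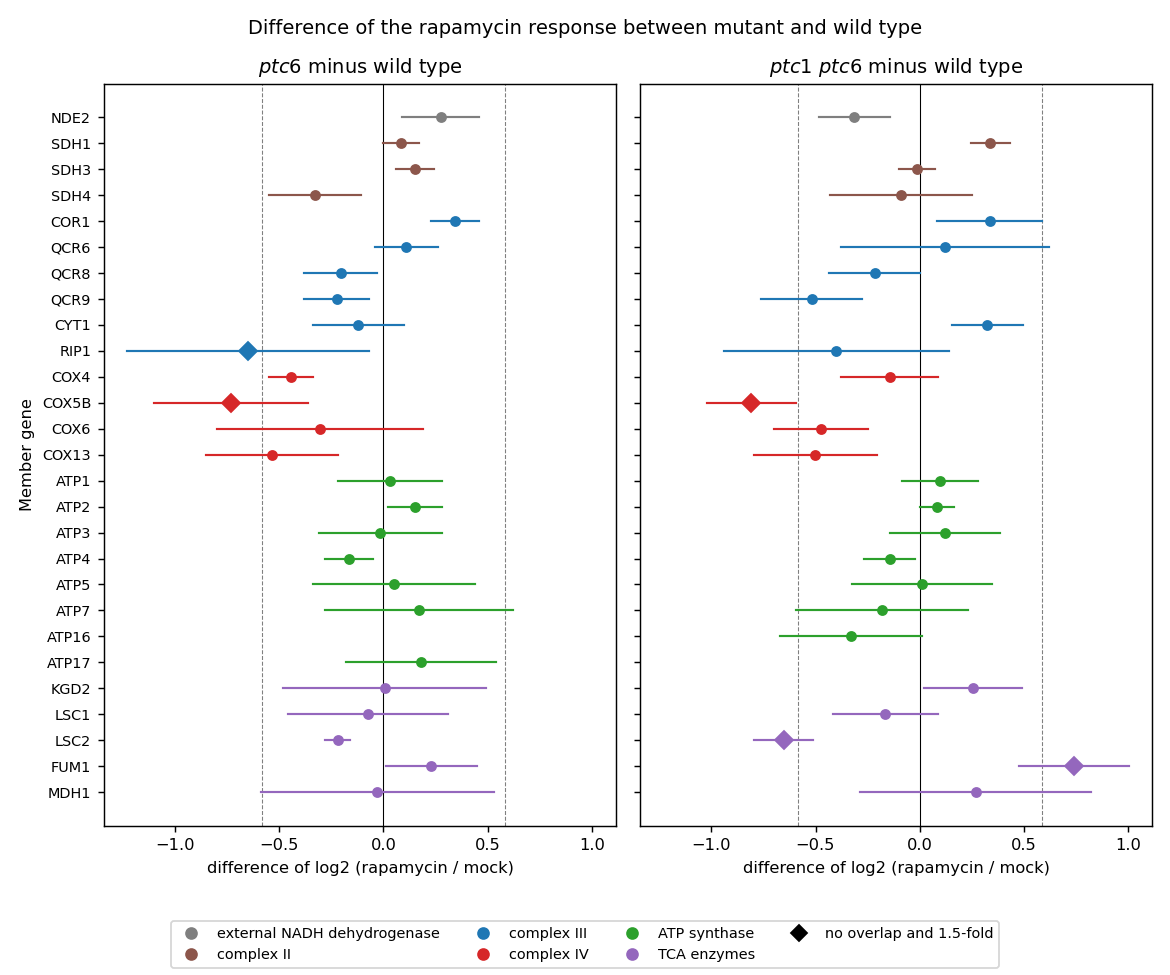
Difference of the mean log2 ratio between a mutant and wild type cells (x axis) for the members measured on all 4 arrays of the pair of strains (y axis). Lines span the 4 pairs of a mutant and a wild type array, diamonds mark genes without overlap that differ by 1.5-fold or more, and dashed lines mark 1.5-fold. All 4 complex IV subunits lie left of 0 in both panels, while the ATP synthase genes lie close to 0 (medians of 0.05 for *ptc6* and 0.01 for *ptc1 ptc6*).

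In complex IV the differences of the means had the same sign, though not on every subset of arrays. Its 4 comparable subunits had a median difference of -0.49 in *ptc6* cells (-0.73 to -0.31) and of -0.49 in *ptc1 ptc6* cells (-0.81 to -0.14), and 0 of 4 lay above 0 in either, whereas 55.5% and 45.7% of all ORFs outside chromosomes XII and XIII did. Those ORFs had any response, while 3 of the 4 subunits were induced in wild type cells. Of the ORFs there induced in wild type cells, 86.8% and 83.9% were weaker in *ptc6* and *ptc1 ptc6* cells. Lower values in all 4 subunits are thus not particular to complex IV. Among the mitochondrial carriers and porin described below, 0 of 4 differences lay above 0 in *ptc6* and 1 of 4 in *ptc1 ptc6* cells. Without *ptc6* array 1 the difference of *COX6* in *ptc6* cells was 0.10, and without *ptc1 ptc6* array 1 that of *COX4* in *ptc1 ptc6* cells was 0.01. In *ptc6* cells *COX4* (-0.45) and *COX13* (-0.54), like *COX5B*, did not overlap with the wild type values, whereas those of *COX6* did. The median difference of complex III was -0.16 in *ptc6* and -0.05 in *ptc1 ptc6* cells (6 genes), with both signs among its subunits. For the ATP synthase it was 0.05 and 0.01 (7 genes each). Both mutants were set against the same wild type arrays, so the values of the mutants are not independent of each other, and the difference of complex IV from the other complexes was not tested.

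The 9 members induced in wild type cells were followed in the mutants by a lost share, the fraction of the wild type log2 response that was missing in the mutant. It was above 0 for 8 of the 9 genes in each mutant, with a median of 0.239 in *ptc6* cells and 0.314 in *ptc1 ptc6* cells. Over all ORFs induced in wild type cells outside chromosomes XII and XIII, the medians were 0.189 and 0.172, and 86.8% and 83.9% of these ORFs had a lost share above 0. Because the wild type values both select the genes and enter the ratio, shares above 0 are favoured for members and other ORFs alike. In *ptc6* cells the highest shares were those of *RIP1* (0.458) and *COX13* (0.439), and the exception was *NDE2* (-0.121). In *ptc1 ptc6* cells *QCR9* (0.423) and *COX13* (0.411) were highest, *SDH4* lost 0.0652, and *CYT1* was the exception (-0.295).

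The mutants were also set against each other. The median of *ptc1 ptc6* minus *ptc6* was 0.01 log2 units over 27 members, beside -0.09 over all ORFs outside chromosomes XII and XIII. Its extremes were *NDE2* (-0.59) and *FUM1* (0.51), and *LSC2* (-0.43) and *CYT1* (0.44) also moved apart between the mutants without overlap of their arrays.

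For single genes the arrays of opposite dye orientation differed by up to 0.81 log2 units in *ptc6*, 0.76 in *ptc1 ptc6* and 0.84 in wild type cells, as much as the largest differences between strains. The value from the array with rapamycin-treated RNA in Cy5 minus that from the array with Cy3 had a median over the members of 0.17 in *ptc6* cells, 0.10 in *ptc1 ptc6* cells and 0.24 in wild type cells, beside 0.11, -0.01 and 0.07 over all ORFs. For *MDH1* it was 0.56, 0.55 and 0.56 in the 3 strains, although the order of the dyes on arrays 1 and 2 was reversed for the double mutant. Most members did not repeat in this way. Across the 25 members with 6 values, these differences correlated with those of wild type cells at 0.006 for *ptc6* and 0.067 for *ptc1 ptc6*. Between the mutants the correlation was 0.549. The differences were above 0 in all 3 strains for 9 members and below 0 in all 3 for 2. The mean of both orientations cancels a repeated offset like that of *MDH1*, and a single array does not.

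Among genes of the same pathway that are not members, counted from lists assembled from general knowledge, the regulators had 0 induced genes in every strain and 1 repressed gene, *HAP4*, in wild type cells (0 of 5 in *ptc6*, 0 of 7 in *ptc1 ptc6*, 1 of 5 in wild type cells). Beside shares of all ORFs of 10.6%, 12.2% and 14.7% induced and of 18.8% repressed in wild type cells, counts of this size show nothing about the list. The log2 ratios of *HAP4* were -0.87 and -0.63 in *ptc6* cells, 0.04 and 0.17 in *ptc1 ptc6* cells, and -1.70 and -1.53 in wild type cells, so that repression past 2-fold was measured in wild type cells only and the values of the 3 strains did not overlap. The differences from wild type were 0.87 for *ptc6* and 1.72 for *ptc1 ptc6*. The DNA-binding partner *HAP2* had means of 0.26, 0.64 and 0.26 in *ptc6*, *ptc1 ptc6* and wild type cells. *MIG1*, a glucose repressor, was separated higher in *ptc1 ptc6* than in wild type cells (0.70). With *HAP4*, 1 of 5 regulators compared was separated higher in *ptc6* and 2 of 5 in *ptc1 ptc6* cells, beside 9.51% and 7.53% of all ORFs. Of the 25 members with a mean in each strain, 5 had the same order of strains as *HAP4* (*QCR6*, *ATP1*, *SDH1*, *KGD2* and *FUM1*) and 6 the opposite order (*QCR8*, *QCR9*, *COX5B*, *COX6*, *LSC1* and *LSC2*). The shares of all ORFs with these orders were not counted, so neither count shows whether the members follow *HAP4*.

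**Figure D4:**
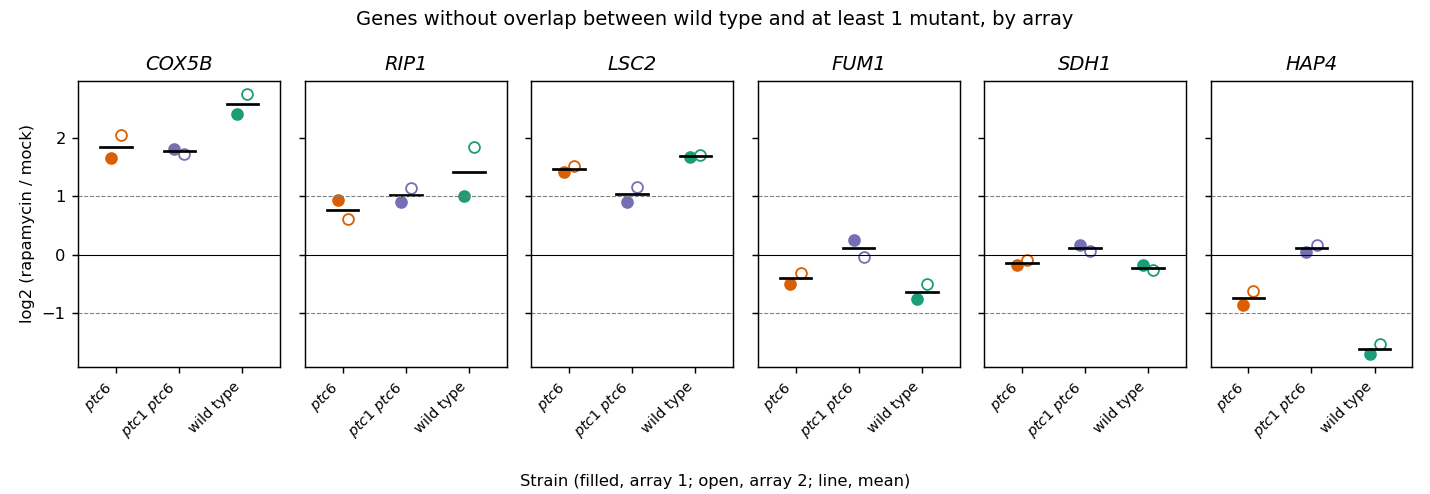
Log2 ratio of rapamycin-treated to mock-treated cells (y axis) for 5 members and *HAP4* in *ptc6*, *ptc1 ptc6* and wild type cells (x axis). Filled and open circles are arrays 1 and 2, lines are their mean, and dashed lines mark 2-fold. *HAP4* lies below the lower dashed line only in wild type cells (-1.62), and *COX5B* is above the upper line in each strain.

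The TCA and linked enzymes outside the members, 10 listed, had a larger share past 2-fold than the members. Induced were 5 of 9 in *ptc6* cells, 4 of 10 in *ptc1 ptc6* cells and 5 of 9 in wild type cells, with 0 repressed. The shares of all ORFs induced were 10.6%, 12.2% and 14.7%. Those repressed were 14.2%, 15.2% and 18.8%, beside which 0 of so few genes shows little. Over the 9 genes with a value on every array, which leaves out *CIT3*, the count in *ptc1 ptc6* cells was 3. The list is small and several calls lay close to the limit, and *LPD1*, at 1.00 in wild type cells, did not pass it. *CIT2*, the peroxisomal citrate synthase and a target of the retrograde pathway, had means of 3.44, 2.98 and 3.65 in *ptc6*, *ptc1 ptc6* and wild type cells. *CIT1*, the mitochondrial citrate synthase, had 1.83, 1.92 and 1.63, and *IDP1*, mitochondrial isocitrate dehydrogenase using NADP, had 1.56, 1.80 and 2.28. The subunits of the NAD-dependent isocitrate dehydrogenase were near the limit, with 1.03, 0.79 and 0.78 for *IDH1* and 1.01, 0.88 and 1.01 for *IDH2*, and so was *KGD4*, a subunit of the 2-oxoglutarate dehydrogenase complex, with 0.83, 0.71 and 1.11. *CIT3* had 2.59 and 2.67 in *ptc1 ptc6* cells, no value in *ptc6* cells, and 16.25 on wild type array 1 alone, the highest value in the table, so its strains were not compared.

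Of the mitochondrial carriers and porin, 1 of 5 was induced in *ptc6* cells, 2 of 4 in *ptc1 ptc6* cells and 3 of 5 in wild type cells. The shares of all ORFs were 10.6%, 12.2% and 14.7%. So few genes show little about the list, and the sets differ, since *MIR1* had a mean in *ptc6* cells only and *ODC2* in wild type cells only. The induced genes were *POR1*, the outer membrane porin, with means of 1.38, 1.67 and 2.09 in *ptc6*, *ptc1 ptc6* and wild type cells, *ODC1*, the oxodicarboxylate carrier (0.96, 1.07 and 1.65), and *PIC2*, a phosphate and copper carrier (0.91, 0.80 and 1.02). Of 4 genes of this list compared, *POR1* and *ODC1* were separated lower in *ptc6* than in wild type cells, with differences of -0.71 and -0.69. Of 9 TCA and linked enzymes compared, *IDP1* was separated lower in *ptc6* cells (-0.73). *MDH2*, cytosolic malate dehydrogenase, was separated higher in both mutants (0.72 in *ptc6* and 0.72 in *ptc1 ptc6* cells). Over all ORFs 2.8% were separated lower and 9.51% higher in *ptc6* cells, and 7.53% higher in *ptc1 ptc6* cells. Calls in these lists were not repeated with an array left out, and so few genes show little.

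Past 2-fold upward among the assembly factors were 3 of 19 in *ptc6* cells, with 2 downward, 3 of 20 and 2 in *ptc1 ptc6* cells, and 3 of 16 and 2 in wild type cells. The induced shares of 15.8%, 15% and 18.8% were near those of all ORFs (10.6%, 12.2% and 14.7%). Of all ORFs 14.2%, 15.2% and 18.8% were repressed, and the downward counts did not exceed these shares. Induced in every strain were *COX20* (means of 1.44, 1.34 and 1.49), a factor for maturation of the Cox2 subunit, and *SDH5* (1.16, 1.21 and 1.39), which is needed to attach the flavin to Sdh1. *ATP22*, needed for translation of the mitochondrial *ATP6* mRNA, was induced in *ptc6* (1.02) and wild type (1.47) cells and had a single value, 1.72, in the double mutant, and *CYC3*, which attaches heme to cytochrome *c*, passed 2-fold only in *ptc1 ptc6* cells (0.78, 1.31 and 0.70). Repressed in every strain were *COX18* (-1.19, -1.35 and -1.29) and *SHY1* (-1.08, -1.07 and -1.57), both needed for assembly of complex IV. In the heme pathway, *HEM3*, porphobilinogen deaminase, was repressed in all strains (-1.38, -1.32 and -1.59) and *HEM12*, uroporphyrinogen decarboxylase, in *ptc1 ptc6* (-1.22) and wild type (-1.43) but not in *ptc6* cells (-0.62), while *HEM14*, protoporphyrinogen oxidase, was induced in *ptc6* cells alone (1.05, 0.74 and 0.82). Repressed were thus 1 of 7 heme genes in *ptc6*, 2 of 8 in *ptc1 ptc6* and 2 of 8 in wild type cells, with 1, 0 and 0 induced. Beside the shares of all ORFs above, so few genes show little about the list. *HEM12* was separated higher in *ptc6* than in wild type cells (0.81), 1 of 7 heme genes compared, beside 9.51% of all ORFs. In *ptc1 ptc6* cells *CYC3* was separated higher (0.61), 1 of 15 assembly factors, and *CIT2* lower (-0.67), 1 of 9 TCA and linked enzymes. The shares of all ORFs there were 7.53% higher and 6.79% lower, so these calls show little about the lists.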

How the data were processed

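The authors hybridized cDNA of rapamycin-treated and mock-treated cells, labelled with Cy3 and Cy5, to arrays of PCR-amplified ORFs. Spots with a diameter below 120 µm or a fluorescence below 150 units were excluded before they deposited a log2 ratio per ORF and array after preprocessing with GEPAS. The normalization is not given in the sources used here. No intensities were used, so the signal over background is unknown and precision is limited by the 6 arrays. That the values are log2 ratios with the same direction on all arrays was taken from their range, their medians (0.01 to 0.10) and the positive correlation of the dye-swapped arrays.

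No further normalization was applied. Of 6212 ORFs, 1098 had no value and 3110 had 6 values. Of the 38 members, 25 had 6 values and 2 had none. Gene names came from the R64 annotation by ORF name (5639 matched), and no other annotated gene overlapped a member. On the 12 chromosomes that hold members, the means of *ptc1 ptc6* and wild type cells correlated across ORFs with r of 0.943 to 0.973.

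Members, lists and limits were chosen with earlier results of these data known. Values on every array are given for members past 2-fold in any strain, for the 5 largest differences in each mutant, for the isoform pairs and for members with missing values. *SDH1*, *SDH3*, *LSC1*, *ATP2*, *MDH1*, *HAP2*, *MDH2* and *MIG1* were named after their values were seen. Also named outside these rules are *LPD1*, *MIR1*, *ODC2*, *QCR6*, *QCR8*, *ATP1*, *ATP3*, *ATP4*, *ATP5* and *ATP7*. No p-value is given, because each strain is 1 biological replicate. The alternatives tried were centred arrays, genes measured on a single array, linear means, genes with 6 values, other limits, leaving out chromosomes XII and XIII, and leaving out each array. The steps were tested on simulated data. The promoter search that had been planned was not run, because no promoter sequence was used here. Python 3.11.15, numpy 2.4.6, pandas 2.3.3 and matplotlib 3.10.9 were used.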

Additional observations from a re-analysis of the deposited data

Results flagged for a closer look

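The strains moved in opposite directions for 2 of the genes named, with every array of a strain on its own side of 0. *SDH1* was above 0 on both *ptc1 ptc6* arrays and below 0 on both *ptc6* and both wild type arrays, and its mean in *ptc1 ptc6* cells was higher by 0.25 log2 units than in *ptc6* cells and by 0.34 than in wild type cells. *HAP4* was likewise above 0 in *ptc1 ptc6* cells and below 0 in the other strains, with a mean higher by 0.86 than in *ptc6* cells and by 1.72 than in wild type cells. These differences were not tested, since each strain is 1 biological replicate. The *SDH1* values are all close to 0. With arrays centred on their median its means were -0.21, 0.07 and -0.26 in *ptc6*, *ptc1 ptc6* and wild type cells. Its value on *ptc1 ptc6* array 2 (0.064) lies below the median of that array (0.0815). Centring therefore puts that value below 0, and the *SDH1* arrays no longer lie on opposite sides of 0.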

How the results depend on the processing

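No paired analysis was possible because the 2 arrays of a strain hold the same RNA and no result comes from a test. Limits of fold moved the counts most. At 1.5-fold, 14 of 30, 14 of 29 and 12 of 27 members were induced in *ptc6*, *ptc1 ptc6* and wild type cells (22%, 24.5% and 25.5% of all ORFs). The order of the strains at 2-fold thus did not hold. Repressed at 1.5-fold were 0, 1 and 2 members. The shares of all ORFs repressed at that limit were not counted, so these counts show nothing about the members. At 3-fold, 2, 2 and 3 were induced (4.66%, 5.19% and 6.99% of all ORFs), and with 2-fold on each array 3, 3 and 8 (8.92%, 9.43% and 12.6%). With no limit of fold, 14 members did not overlap between *ptc6* and wild type (9 lower, 5 higher) and 12 between *ptc1 ptc6* and wild type (7 lower, 5 higher), and at 2-fold 0 did for either mutant in either direction. Over all ORFs the shares with no limit of fold were 17.5% lower and 30.7% higher for *ptc6*, and 25% lower and 21.7% higher for *ptc1 ptc6*. At 2-fold they were 0.632% lower and 2.8% higher for *ptc6*, and 3.02% and 3.61% for *ptc1 ptc6*. Beside such shares a count of 0 shows little about the members. The *ptc1 ptc6* shares include chromosomes XII and XIII, where its values do not correspond to those of wild type cells and no member lies. With centred arrays, 4 members were induced in *ptc1 ptc6* cells and their median was 0.49, and it was 0.69 with a value on at least 1 array and 0.58 with linear means. Leaving out an array gave 5 to 7 induced members in *ptc6*, 6 to 8 in *ptc1 ptc6* and 8 to 9 in wild type cells. It gave 0 to 4 members separated from wild type in *ptc6* (all lower) and 3 to 6 in *ptc1 ptc6* cells (2 to 5 lower). The median difference from wild type ran from -0.215 to 0.085 for *ptc6* and from -0.12 to 0.053 for *ptc1 ptc6*, where it changed sign without *ptc1 ptc6* array 2 (0.053), and the median itself from 0.245 to 0.57 in *ptc6*, from 0.487 to 0.55 in *ptc1 ptc6* and from 0.43 to 0.53 in wild type cells. The cause of these shifts was not tested. Of the single-gene values, 1048 moved by less than the spread of the arrays and 9 by more, all with centred arrays. These counts do not show that the values are stable. Leaving out 1 of 2 arrays always moves a mean by less than the spread used here. Settings that only change which genes are counted leave single-gene values as they are. For *RIP1*, the difference of *ptc6* from wild type went from -0.65 to -0.23 without wild type array 2. The promoter comparison that had been planned was not run.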
